A study of Mus musculus with 24 samples.

Results

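The genes described here carry the interleukin-6 (IL-6) and interleukin-1 (IL-1) signals into the liver and control their response: Il6ra, Il6st, Il1r1, Il1rap, Il1rn, Stat3, Socs3, Cebpb, Cebpd and Nfkbia. They were taken as the loci of the deposited table whose gene names include one of these symbols. Each of the 10 was found at 1 locus with a single name, so they make up 10 of 31027 loci, and all 10 passed the filter that left 10562 loci to be tested. Liver RNA of C57BL/6J mice was sequenced in 24 libraries, 3 in each of 8 groups. On the high fat diet the groups were Jnk1Jnk2 (Alb Cre+ with floxed alleles of both Jnk1 and Jnk2), Jnk1 (Alb Cre+ with floxed Jnk1), Jnk2 (Alb Cre+ with floxed Jnk2) and control (Alb Cre+ alone). The same 4 genotypes were given chow, and either diet lasted 16 weeks. All animals, controls included, carried Alb Cre, whose albumin promoter acts in hepatocytes. Which liver cells lost or kept the kinases was not measured in these libraries. The study asked what loss of these stress kinases in hepatocytes does to the liver on each diet.

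IL-6 binds its receptor (Il6ra), which pairs with the shared signal transducer gp130 (Il6st); JAK kinases on gp130 then phosphorylate STAT3, which enters the nucleus and switches on acute phase genes and its own inhibitor Socs3. IL-1 binds its receptor (Il1r1) together with an accessory protein (Il1rap), and the signal frees NF-κB from its inhibitor IκBα (Nfkbia), itself an NF-κB target, while the antagonist Il1rn blocks the receptor. In hepatocytes STAT3, NF-κB and the C/EBP factors Cebpb and Cebpd act together on genes of plasma proteins made in inflammation, such as fibrinogen and serum amyloid A.

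The start regions of 7 of these genes are shown because their levels moved together or because the letters of a factor of the pathway were found there. Each is a window of 250 bases before to 50 bases after a RefSeq gene start on GRCm38.p6 (mm10), read 5′ to 3′ on the gene's strand, and capitals mark a motif match. Such windows were given for 9 of the 10 genes, 12 windows in all. The windows printed are Il6ra at chr3:89913147-89913446 (minus strand), Il6st at chr13:112463820-112464119 (plus), the second window of Il1r1 at chr1:40266336-40266635 (plus), Stat3 at chr11:100939491-100939790 (minus), Socs3 at chr11:117969317-117969616 (minus), the first window of Il1rn at chr2:24336610-24336909 (plus) and Nfkbia at chr12:55492598-55492897 (minus).
Il6ra: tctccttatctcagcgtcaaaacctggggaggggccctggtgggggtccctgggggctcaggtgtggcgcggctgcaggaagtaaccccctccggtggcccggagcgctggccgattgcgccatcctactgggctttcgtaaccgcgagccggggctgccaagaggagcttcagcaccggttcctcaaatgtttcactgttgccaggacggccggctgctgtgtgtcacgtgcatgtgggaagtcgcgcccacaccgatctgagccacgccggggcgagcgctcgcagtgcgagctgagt
Il6st: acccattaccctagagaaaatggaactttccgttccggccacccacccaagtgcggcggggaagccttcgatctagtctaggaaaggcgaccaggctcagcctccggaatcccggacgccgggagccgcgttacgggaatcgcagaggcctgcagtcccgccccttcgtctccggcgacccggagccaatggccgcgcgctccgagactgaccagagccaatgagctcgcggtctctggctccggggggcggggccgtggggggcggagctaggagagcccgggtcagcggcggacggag
Il1r1: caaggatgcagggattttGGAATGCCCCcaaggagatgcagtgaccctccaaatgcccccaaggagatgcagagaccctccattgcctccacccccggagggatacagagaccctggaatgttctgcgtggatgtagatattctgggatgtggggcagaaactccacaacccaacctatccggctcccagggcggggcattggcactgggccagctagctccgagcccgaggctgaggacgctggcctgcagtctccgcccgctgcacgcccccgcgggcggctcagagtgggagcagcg
Stat3: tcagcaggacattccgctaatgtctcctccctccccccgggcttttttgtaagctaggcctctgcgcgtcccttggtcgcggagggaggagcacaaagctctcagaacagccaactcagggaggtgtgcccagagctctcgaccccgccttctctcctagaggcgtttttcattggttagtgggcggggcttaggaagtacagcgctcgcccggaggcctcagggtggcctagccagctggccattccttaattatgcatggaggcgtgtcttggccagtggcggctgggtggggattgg
Socs3: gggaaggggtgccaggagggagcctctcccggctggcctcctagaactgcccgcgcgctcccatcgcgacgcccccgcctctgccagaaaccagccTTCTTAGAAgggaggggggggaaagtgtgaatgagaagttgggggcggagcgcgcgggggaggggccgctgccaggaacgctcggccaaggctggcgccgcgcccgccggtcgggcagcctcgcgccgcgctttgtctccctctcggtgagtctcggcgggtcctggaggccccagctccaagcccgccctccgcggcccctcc
Il1rn: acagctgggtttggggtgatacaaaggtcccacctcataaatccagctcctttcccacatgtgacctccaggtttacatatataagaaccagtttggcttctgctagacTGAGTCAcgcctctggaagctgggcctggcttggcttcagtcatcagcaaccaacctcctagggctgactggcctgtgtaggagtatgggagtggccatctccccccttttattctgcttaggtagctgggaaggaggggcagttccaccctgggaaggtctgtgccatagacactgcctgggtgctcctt
Nfkbia: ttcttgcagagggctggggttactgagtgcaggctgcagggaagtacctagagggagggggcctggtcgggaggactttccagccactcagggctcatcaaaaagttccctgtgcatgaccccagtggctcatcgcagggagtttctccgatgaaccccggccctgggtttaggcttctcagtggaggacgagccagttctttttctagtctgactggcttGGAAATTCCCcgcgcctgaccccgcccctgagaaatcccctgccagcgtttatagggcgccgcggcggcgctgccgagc

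The STAT letters TTCNNNGAA, which read the same on both strands, stood in 1 of the 12 windows, at Socs3, where TTCTTAGAA began 154 bases before the start. They were in 8.3% of all 32851 RefSeq windows of this length. The AP-1 letters TGACTCA, searched on both strands, were found in the first Il1rn window as TGAGTCA, 141 bases before the start, and in 5.2% of all windows. An NF-κB match stood 29 bases before the start of Nfkbia (GGAAATTCCC) and 232 bases before the second start of Il1r1 (GGAATGCCCC), and 4.51% of all windows held one. The C/EBP letters TTGCNNCAA, searched on both strands, were in 0 of the 12 windows and in 2.08% of all windows. No window held matches to more than 1 of these motifs, so none overlapped. These matches describe letters only, and binding was not measured.

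All values are FPKM (mapped fragments divided by transcript length and by sequencing depth), so levels of different genes can be compared per length. Mapk8, the gene of JNK1, ranged from 0.845 to 2.47 FPKM in the 12 libraries whose label has floxed Jnk1, against 3.38 to 5.77 FPKM in the other 12. Mapk9, the gene of JNK2, ranged from 4.33 to 7.79 FPKM in the 12 with floxed Jnk2, against 9.01 to 12 FPKM in the others. The 3 high fat Jnk1Jnk2 libraries stood apart. Their FPKM summed to between 849038 and 873399, against 634849 to 734352 in the other 21, and long transcripts had lower values in them. The Spearman correlation across loci of a library's deviation with transcript length was between -0.65 and -0.59 in those 3 libraries, and between -0.21 and 0.42 in the others. For the 10 genes and the gene lists, the comparison of these 3 libraries with high fat controls is therefore also given after this length trend was removed. Relative depth, read from the smallest steps of low values, spanned 0.25 to 1 of the deepest library, and the absolute depth is unknown. The albumin gene Alb, a defining hepatocyte marker, was high in 20 libraries and listed at 0 in the other 4. These 0 values were taken as failed estimates, and their cause was not tested.

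Over all 24 libraries Cebpb had the highest level of the 10 genes, from 106 to 272 FPKM, with no overlap with the next gene, Il1rap, which ranged from 36.3 to 71.2 FPKM. Nfkbia ranged from 20.8 to 44.5 FPKM and Stat3 from 14.9 to 37.8 FPKM, and these neighbours overlapped. The next group, in which Il6st ranged from 7.82 to 22.1 FPKM, Il1r1 from 5.54 to 26.9 FPKM and Il6ra from 3.28 to 23.5 FPKM, also overlapped throughout. Lowest were Cebpd (3.05 to 13.2 FPKM), Socs3 (2.14 to 7.62 FPKM) and Il1rn (1.20 to 7.67 FPKM). The plot of levels by library shows each value. Socs3 overlapped between all pairs of groups, with group means from 4.12 to 5.41 FPKM.

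**Figure D1:**
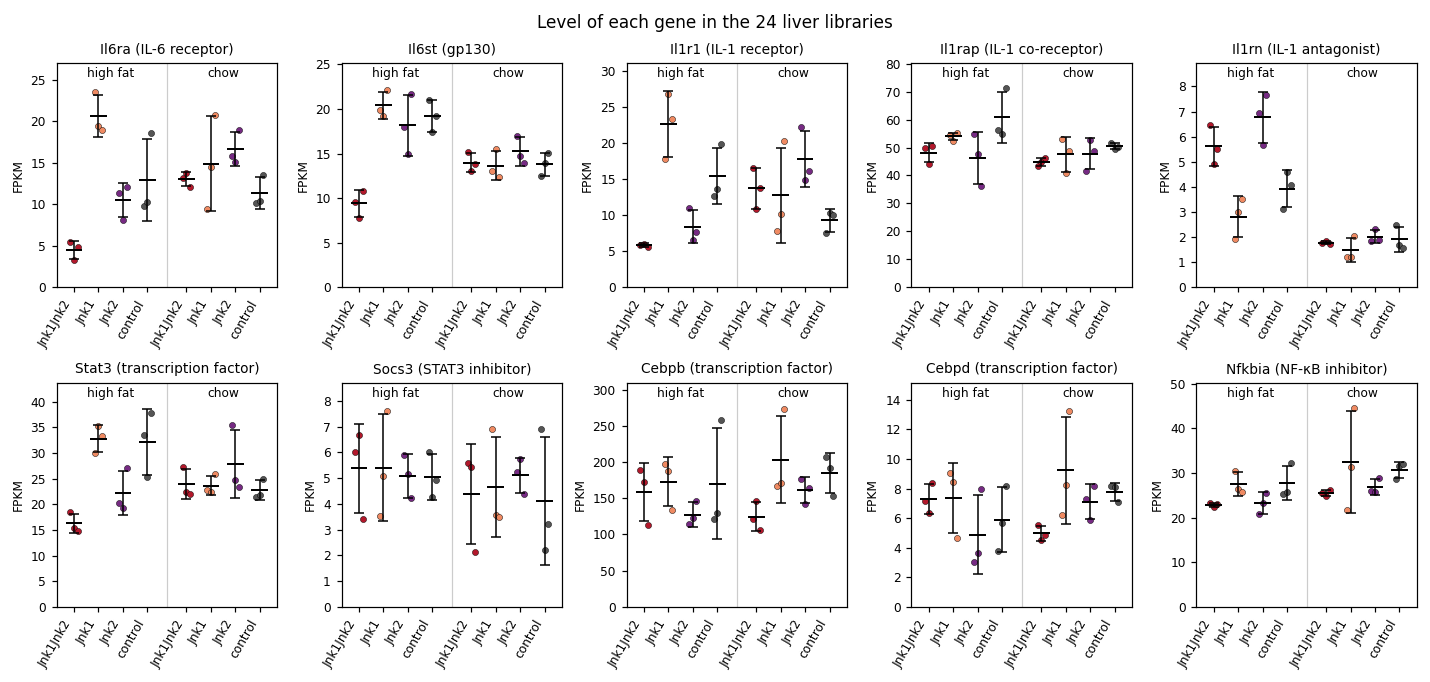
FPKM of each gene in the 24 libraries (points), with group mean and SD (bars), for high fat and chow groups of 3 libraries each and the genotypes Jnk1Jnk2, Jnk1, Jnk2 and control from left to right. Il6ra, Il6st and Stat3 are lowest on average in high fat Jnk1Jnk2 livers, at 4.51, 9.41 and 16.2 FPKM, and Il1r1 is lowest there too, at 5.84 FPKM.

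In mice fed high fat, Jnk1Jnk2 livers had lower levels of both IL-6 receptor chains, of the IL-1 receptor and of Stat3 than control livers, while Socs3, Cebpb, Cebpd and Nfkbia did not pass the test. Changes are differences of log2(FPKM + 1) with their standard error, from a limma fit of all 24 libraries, and genes were called where the p adjusted over all loci tested by the Benjamini-Hochberg method was under 0.05. Of the 10 genes 5 were lower, 1 was higher and 4 were not called. In the same comparison 51.2% of all loci were called, 31.6% as lower and 19.6% as higher, so the number called is close to the background and is not in itself a result about these genes. As deposited, 2072 loci were higher and 3338 lower, and with size factors 2783 were higher and 2815 lower. The median change of the 10 genes was -0.29, against -0.07 for all loci. With the length trend removed, 4 of the 10 were lower and 0 higher, where 34% of loci were called, 16.8% as lower and 17.2% as higher.

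Il6ra, the chain that binds IL-6, is at chr3:89869324-89913162 on mm10. It had 5.43, 3.28 and 4.82 FPKM in high fat Jnk1Jnk2 livers, against 9.85, 10.3 and 18.6 FPKM in high fat control livers. Every Jnk1Jnk2 library was below every control library, and 1 control library was well above the other controls. The change was -1.30 ± 0.24 (SE, adjusted p = 0.000182), and -0.79 with the length trend removed (adjusted p = 0.0121). Its group mean in high fat Jnk1Jnk2 livers, 4.51 ± 1.11 FPKM, compares with 12.9 ± 4.94 FPKM in controls (SD, n = 3 each).

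Il6st encodes gp130, the signalling chain shared by the IL-6 family, at chr13:112464070-112506860. It had 9.60, 7.82 and 10.8 FPKM in high fat Jnk1Jnk2 livers, against 21.0, 17.4 and 19.2 FPKM in high fat controls. The groups were far apart, with little spread within either. The change was -0.96 ± 0.13 (adjusted p = 9.33e-06), and removing the length trend left -0.81 (adjusted p = 3.1e-05), the smallest adjusted p of the 10 genes in both fits.

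Il1r1, the signalling receptor for IL-1, is at chr1:40225080-40316177. Its level was 5.92, 6.07 and 5.54 FPKM in high fat Jnk1Jnk2 livers, against 12.7, 13.7 and 19.9 FPKM in high fat controls. The Jnk1Jnk2 libraries lay close together and below all controls. The change was -1.24 ± 0.26 (adjusted p = 0.000646), and -0.76 with the length trend removed (adjusted p = 0.0358). Its partner Il1rap (chr16:26581705-26725147), which the receptor needs to signal, had 49.8, 44.2 and 50.6 FPKM in Jnk1Jnk2 livers, against 56.4, 54.7 and 71.2 FPKM in controls. These groups also did not overlap, but the gap was narrow. Il1rap passed the test at -0.32 ± 0.13 (adjusted p = 0.0469), and the call was lost with the length trend removed, where the change was 0.01 (adjusted p = 0.975). Among 8 alternative settings, such as size factors or a pseudocount of 0.1, Il1rap was called in 3. It was called in 1 of the 6 fits that left out 1 library of these groups, the fit without high fat control replicate 2, and the change ranged over them between -0.39 and -0.20, with -0.20 (adjusted p = 0.234) without high fat control replicate 3.

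Stat3, the transcription factor activated through gp130, is at chr11:100886810-100939511. It had 18.5, 15.4 and 14.9 FPKM in high fat Jnk1Jnk2 livers, against 33.4, 25.2 and 37.8 FPKM in high fat controls. All Jnk1Jnk2 libraries were below all controls. The change was -0.93 ± 0.16 (adjusted p = 0.000107), and -0.62 with the length trend removed (adjusted p = 0.0037). Il6ra, Il6st, Il1r1 and Stat3 each stayed called in 6 of 6 fits that left out 1 library of these groups.

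Il1rn (chr2:24336860-24351491), the antagonist that occupies the IL-1 receptor without signalling, was the only one of the 10 called as higher. It had 6.46, 4.90 and 5.49 FPKM in high fat Jnk1Jnk2 livers, against 3.12, 4.59 and 4.07 FPKM in high fat controls. The groups did not overlap, although the lowest Jnk1Jnk2 library was close to the highest control. The change was 0.43 ± 0.17 (adjusted p = 0.0391), and the call was lost with the length trend removed (0.18, adjusted p = 0.45). It was called in 4 of the 8 alternative settings and in 2 of 6 fits that left out 1 library. The call was lost without Jnk1Jnk2 replicate 1 (0.34), without Jnk1Jnk2 replicate 3 (0.44), without control replicate 1 (0.31) and without control replicate 3 (0.46).

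Socs3 (chr11:117966087-117969366), the STAT3 target that shuts off gp130 signalling, had 6.02, 6.68 and 3.43 FPKM in high fat Jnk1Jnk2 livers, against 6.00, 4.25 and 4.91 FPKM in high fat controls. The groups overlapped, and the change was 0.04 ± 0.33 (adjusted p = 0.926), or 0.14 with the length trend removed (adjusted p = 0.775). Nfkbia (chr12:55489409-55492647), the NF-κB inhibitor, had 23.3, 22.4 and 23.0 FPKM in Jnk1Jnk2 livers, against 25.3, 25.8 and 32.2 FPKM in controls. Here the groups did not overlap, yet the change of -0.26 ± 0.16 did not pass (adjusted p = 0.186), nor did the -0.44 with the length trend removed (adjusted p = 0.0526). The transcription factor genes Cebpb (chr2:167688915-167690418) and Cebpd (chr16:15887286-15889545) overlapped between the groups. Cebpb averaged 158 ± 40.1 FPKM in Jnk1Jnk2 livers and 170 ± 76.4 FPKM in controls (SD, n = 3 each), and its change was -0.05 ± 0.26 (adjusted p = 0.889), or -0.25 with the length trend removed (adjusted p = 0.486). Cebpd averaged 7.30 ± 1.03 FPKM in Jnk1Jnk2 livers and 5.87 ± 2.20 FPKM in controls, with a change of 0.31 ± 0.29 (adjusted p = 0.369), or 0.34 with the length trend removed (adjusted p = 0.389).

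**Figure D2:**
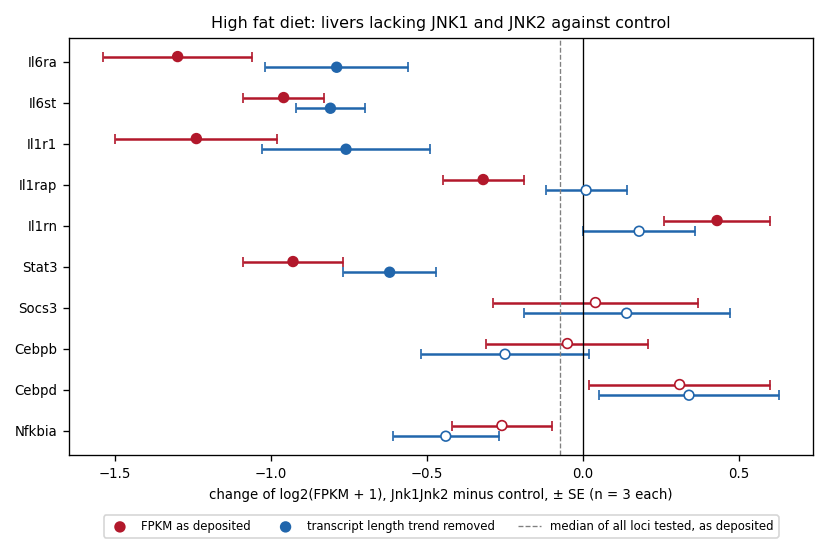
Change of log2(FPKM + 1) ± SE between high fat Jnk1Jnk2 and high fat control livers (n = 3 each), from FPKM as deposited (red) and with the transcript length trend removed (blue). Filled points were called at an adjusted p under 0.05. Il6ra, Il6st, Il1r1 and Stat3 are filled in both, and Il1rap and Il1rn as deposited only.

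On chow the same loss of both kinases called 0 of the 10 genes, with 0.161% of all loci called, 0.0284% as higher and 0.133% as lower. Il6ra averaged 13.0 ± 0.85 FPKM in chow Jnk1Jnk2 livers and 11.4 ± 1.93 FPKM in chow controls (SD, n = 3 each), a change of 0.19 ± 0.24 (adjusted p = 0.796). Il6st averaged 14.0 ± 1.08 FPKM in chow Jnk1Jnk2 livers and 13.8 ± 1.29 FPKM in chow controls, with a change of 0.02 ± 0.13 (adjusted p = 0.982). Stat3 averaged 23.9 ± 2.96 FPKM in chow Jnk1Jnk2 livers and 22.7 ± 1.94 FPKM in chow controls, with a change of 0.07 ± 0.16 (adjusted p = 0.907). In these 3 genes the groups overlapped. Il1r1 averaged 13.7 ± 2.87 FPKM in chow Jnk1Jnk2 livers and 9.32 ± 1.58 FPKM in chow controls, so its difference on chow was in the other direction from that on the high fat diet, at 0.51 ± 0.26 (adjusted p = 0.428). The largest differences towards lower values were those of Cebpb, at -0.56 ± 0.26 (adjusted p = 0.367), and Cebpd, at -0.56 ± 0.29 (adjusted p = 0.429).

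The interaction of diet and genotype, which tests whether the Jnk1Jnk2 effect on the high fat diet differs from that on chow, called 4 of the 10 genes, all as lower, against 34.9% of all loci, 19.1% as lower and 15.8% as higher. Il1r1 had -1.74 ± 0.37 (adjusted p = 0.00166), Il6ra -1.49 ± 0.34 (adjusted p = 0.00259), Stat3 -1.0 ± 0.23 (adjusted p = 0.00274) and Il6st -0.98 ± 0.18 (adjusted p = 0.000662). These 4 were also called as lower on the high fat diet, as was Il1rap, whose interaction was not called. Each stayed called in all 12 fits that left out 1 library and with the length trend removed, where the values were -1.32 for Il1r1, -1.02 for Il6ra, -0.75 for Stat3 and -0.91 for Il6st. Socs3 had an interaction of -0.06 ± 0.46 (adjusted p = 0.937) and Il1rap one of -0.15 ± 0.18 (adjusted p = 0.55). That of Cebpd was 0.87 ± 0.40 (adjusted p = 0.0996), and it was called in 2 of 8 alternative settings and 1 of 12 fits that left out 1 library.

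Loss of JNK2 alone on the high fat diet went with higher Il1rn and lower Il1r1 and Stat3, while Il6ra and Il6st did not pass. This comparison uses the same high fat controls as the others on that diet. It called 3 of the 10 genes, against 12.4% of all loci, 7.45% as higher and 4.96% as lower. Il1rn had 6.96, 5.68 and 7.67 FPKM in high fat Jnk2 livers, against the 3.12, 4.59 and 4.07 FPKM of the high fat controls. The groups did not overlap, and the change was 0.66 ± 0.17 (adjusted p = 0.014). Il1r1 had 11.0, 6.54 and 7.74 FPKM in Jnk2 livers, below the 12.7, 13.7 and 19.9 FPKM of the controls, with a change of -0.80 ± 0.26 (adjusted p = 0.0494). Stat3 had 20.3, 19.3 and 27.0 FPKM in Jnk2 livers, against 33.4, 25.2 and 37.8 FPKM in controls, so that 1 Jnk2 library lay above the lowest control, and the change was -0.51 ± 0.16 (adjusted p = 0.0424). These calls were not stable. Over the 8 alternative settings Il1rn was called in 7, Stat3 in 6 and Il1r1 in 3. Without control replicate 1 none of the 3 was called, with changes of 0.54 for Il1rn, -0.92 for Il1r1 and -0.47 for Stat3. The Il1rn call was also lost without Jnk2 replicate 3 (0.58). The Stat3 call was also lost without Jnk2 replicate 1 (-0.46), Jnk2 replicate 2 (-0.42) or control replicate 3 (-0.39). The Il1r1 call was also lost without Jnk2 replicate 2 (-0.65), Jnk2 replicate 3 (-0.76), control replicate 2 (-0.87) or control replicate 3 (-0.62), and with the length trend removed (-0.74, adjusted p = 0.0725).

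Il6st averaged 18.2 ± 3.40 FPKM in high fat Jnk2 livers and 19.2 ± 1.84 FPKM in high fat controls (SD, n = 3 each), and its change was -0.09 ± 0.13 (adjusted p = 0.704). Il6ra averaged 10.5 ± 2.09 FPKM in Jnk2 livers and 12.9 ± 4.94 FPKM in controls, at -0.23 ± 0.24 (adjusted p = 0.559). Both therefore overlapped with controls, and whether they differ between high fat Jnk1Jnk2 and high fat Jnk2 livers was not tested. Il1rap missed the threshold at -0.39 ± 0.13 (adjusted p = 0.0537), and it was called at -0.42 (adjusted p = 0.0312) with size factors, at -0.43 (adjusted p = 0.0168) with quantile normalization, at -0.41 (adjusted p = 0.046) with the length trend removed, and at -0.52 (adjusted p = 0.0186) without Jnk2 replicate 1. Socs3 averaged 5.08 ± 0.84 FPKM in Jnk2 livers and 5.06 ± 0.89 FPKM in controls, a change of 0.01 ± 0.33 (adjusted p = 0.996). The other 3 genes had changes from -0.33 (Cebpb) to -0.24 (Nfkbia), with -0.27 for Cebpd, and none was called.

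The interaction of diet and loss of JNK2 called 2 of the 10 genes as lower, against 9.52% of all loci, 6.18% as higher and 3.33% as lower. Il1r1 had -1.66 ± 0.37 (adjusted p = 0.0105), which stayed called in all 12 fits that left out 1 library. Il1r1 averaged 8.43 ± 2.31 FPKM in high fat Jnk2 livers and 15.4 ± 3.88 FPKM in high fat controls, but 17.8 ± 3.90 FPKM in chow Jnk2 livers and 9.32 ± 1.58 FPKM in chow controls (SD, n = 3 each). The means of the genotypes were thus in opposite order on the 2 diets, and the difference on chow was not called. Stat3 had -0.77 ± 0.23 (adjusted p = 0.0382), called in 5 of 12 such fits. The value was -0.72 without high fat Jnk2 replicate 1, -0.68 without high fat Jnk2 replicate 2, -0.74 without high fat control replicate 1, -0.65 without high fat control replicate 3, -0.59 without chow Jnk2 replicate 1, -0.73 without chow control replicate 1 and -0.75 without chow control replicate 2, none of them called.

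Loss of JNK1 alone called 0 of the 10 genes on the high fat diet, where 0.227% of all loci were called, 0.123% as higher and 0.104% as lower. High fat Jnk1 livers had the highest mean of the 8 groups for Il6ra, at 20.6 ± 2.54 FPKM against 12.9 ± 4.94 FPKM in high fat controls, and for Il1r1, at 22.7 ± 4.55 FPKM against 15.4 ± 3.88 FPKM in high fat controls (SD, n = 3 each). Every Jnk1 library was above every control for Il6ra, with 23.5, 19.4 and 18.9 FPKM in Jnk1 livers against 9.85, 10.3 and 18.6 FPKM in controls. Il1r1 overlapped, with 17.8, 26.9 and 23.3 FPKM in Jnk1 livers against 12.7, 13.7 and 19.9 FPKM in controls. The changes were 0.68 ± 0.24 for Il6ra (adjusted p = 0.242) and 0.54 ± 0.26 for Il1r1 (adjusted p = 0.427). Il1rn had a change of -0.38 ± 0.17 (adjusted p = 0.378), and its groups overlapped. With limma array weights, which give less weight to libraries that vary more, Il6ra was called at 0.92 (adjusted p = 0.00521) and Cebpd at 0.71 (adjusted p = 0.0446). The interaction of diet and loss of JNK1 called 0 of the 10 genes and 0 of 10562 loci in limma, where 545 loci had an unadjusted p under 0.05, and 1 locus was called when the groups compared were fitted alone. On chow, loss of JNK1 or of JNK2 alone called 0 of the 10 genes each, with 2.2% of all loci called for JNK1 (0.985% as higher, 1.21% as lower) and 0.454% for JNK2 (0.104% as higher, 0.35% as lower). The largest chow difference was that of Il1r1 for loss of JNK2, at 0.86 ± 0.26 (adjusted p = 0.147), with 22.2, 14.9 and 16.2 FPKM in chow Jnk2 livers against 7.50, 10.3 and 10.1 FPKM in chow controls. These libraries did not overlap.

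The high fat diet itself raised Il1rn in all 4 genotypes. Il1rn averaged 5.62 ± 0.79 FPKM in high fat and 1.78 ± 0.07 FPKM in chow Jnk1Jnk2 livers, a change of 1.24 ± 0.17 (adjusted p = 9.87e-06), and this change was 0.83 with the length trend removed (adjusted p = 0.0011). It averaged 2.82 ± 0.82 FPKM in high fat and 1.49 ± 0.49 FPKM in chow Jnk1 livers, a change of 0.61 ± 0.17 (adjusted p = 0.0193). In Jnk2 livers it averaged 6.77 ± 1.01 FPKM on high fat and 2.02 ± 0.27 FPKM on chow, a change of 1.36 ± 0.17 (adjusted p = 2.66e-05). In controls it averaged 3.93 ± 0.75 FPKM on high fat and 1.92 ± 0.50 FPKM on chow, a change of 0.76 ± 0.17 (adjusted p = 0.00476). The call in Jnk1 livers was lost without high fat replicate 2 (0.56), high fat replicate 3 (0.47), chow replicate 1 (0.54) or chow replicate 2 (0.53). The diet effect on Il1rn was not shown to differ from that in controls for Jnk1Jnk2 (interaction 0.49 ± 0.24, adjusted p = 0.118) or for Jnk2 (0.60 ± 0.24, adjusted p = 0.11).

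In Jnk1Jnk2 livers Il6ra, Il6st, Il1r1 and Stat3 were lower on the high fat diet than on chow, while Il1rap was not (0.10 ± 0.13, adjusted p = 0.53). This comparison called 5 of the 10 genes, 1 higher and 4 lower, against 56.9% of all loci, 30.1% as higher and 26.8% as lower, so the number called is again close to the background. Il6ra had 5.43, 3.28 and 4.82 FPKM on high fat, against 13.1, 13.8 and 12.1 FPKM on chow, a change of -1.36 ± 0.24 (adjusted p = 0.000105). Il1r1 had 5.92, 6.07 and 5.54 FPKM on high fat, against 16.6, 10.9 and 13.7 FPKM on chow, a change of -1.09 ± 0.26 (adjusted p = 0.0016). In both genes all high fat libraries were below all chow libraries. Il6st changed by -0.53 ± 0.13 (adjusted p = 0.0018) and Stat3 by -0.53 ± 0.16 (adjusted p = 0.00854). With the length trend removed, Il6ra had -0.92, Il1r1 -0.70 and Il6st -0.50, all called, while Stat3 had -0.33 and was not (adjusted p = 0.0867) and Nfkbia was called at -0.49 (adjusted p = 0.0283).

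In controls the diet instead raised Il6st, and it called 2 of the 10 genes, against 16.3% of all loci, 10.1% as higher and 6.19% as lower. Il6st had 21.0, 17.4 and 19.2 FPKM in high fat controls, against 12.5, 14.0 and 15.0 FPKM in chow controls, with no overlap. The change was 0.45 ± 0.13 (adjusted p = 0.0235), and it lost its call without high fat replicate 1 (0.38), chow replicate 1 (0.38) or chow replicate 2 (0.46). Stat3 in controls had a change of 0.47 ± 0.16 that missed the threshold (adjusted p = 0.0524). It was called with the length trend removed, at 0.43 (adjusted p = 0.0465), and without high fat replicate 2, at 0.63 (adjusted p = 0.0203).

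In Jnk1 livers the diet called 3 of the 10 genes, all higher, against 15% of all loci, 9.22% as higher and 5.81% as lower. Besides Il1rn these were Il6st, at 0.55 ± 0.13 (adjusted p = 0.00711), and Il1r1, at 0.86 ± 0.26 (adjusted p = 0.0298). Il6st averaged 20.4 ± 1.55 FPKM in high fat and 13.7 ± 1.62 FPKM in chow Jnk1 livers (SD, n = 3 each). The Il1r1 call was lost with the length trend removed (0.75, adjusted p = 0.0588) and without high fat replicate 2 (0.74), high fat replicate 3 (0.84), chow replicate 1 (0.60) or chow replicate 2 (0.77). In Jnk2 livers the diet called 2 of the 10 genes, against 26% of all loci, 19.7% as higher and 6.39% as lower. Besides Il1rn this was Il1r1, at -1.0 ± 0.26 (adjusted p = 0.0084), which stayed called in 6 of 6 fits that left out 1 library. Il6ra in Jnk2 livers had -0.62 ± 0.24 (adjusted p = 0.06), and with size factors it was called at -0.74 (adjusted p = 0.0276). Socs3 had no called diet effect in any genotype, with changes from -0.01 (Jnk2) to 0.34 (control), nor had Cebpb, whose changes ran from -0.34 (Jnk2) to 0.32 (Jnk1Jnk2), in this fit.

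**Figure D3:**
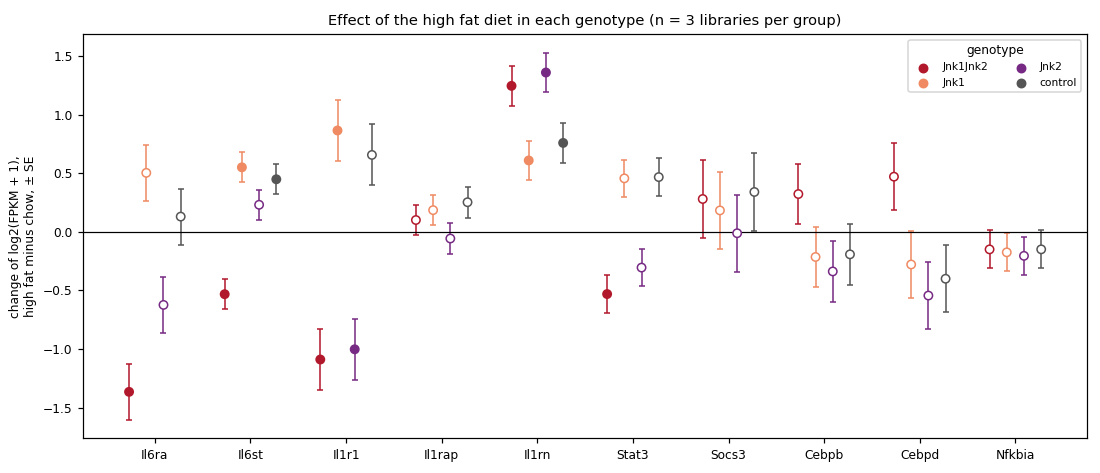
Change of log2(FPKM + 1) ± SE between high fat and chow livers in each genotype (n = 3 libraries per group), with filled points called at an adjusted p under 0.05. Il1rn is above 0 and called in all 4 genotypes, whereas Il6ra runs from -1.36 in Jnk1Jnk2 livers to 0.50 in Jnk1 livers.

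Most ligand genes listed were below the filter on low values. Il6 itself was between 0 and 0.167 FPKM in every library, and of 12 ligand genes 4 passed. On the high fat diet 0 of these 4 were called in Jnk1Jnk2 livers against controls as deposited, 1 was called as higher with size factors or with quantile normalization, and with the length trend removed 1 was lower, Il18, an IL-1 family cytokine (-0.37, adjusted p = 0.0288, against 0.05 as deposited). In Jnk2 livers 1 of the 4 was lower, also Il18, with 7.89, 7.69 and 7.05 FPKM in high fat Jnk2 livers against 10.8, 12.2 and 12.0 FPKM in high fat controls. Its change was -0.57 ± 0.11 (adjusted p = 0.00247). Against high fat controls 51.2% of all loci were called in Jnk1Jnk2 livers, 34% with the length trend removed, and 12.4% in Jnk2 livers. Counts among only 4 ligand genes are therefore not in themselves a result about them. Of 13 other receptor genes 8 passed the filter. In high fat Jnk1Jnk2 livers Il22ra1, the IL-22 receptor chain, was lower than in controls, at -0.67 ± 0.17 (adjusted p = 0.00241), and Il11ra1, the IL-11 receptor chain, was higher, at 0.56 ± 0.15 (adjusted p = 0.00478). Both were still called with the length trend removed, at -0.57 for Il22ra1 and 0.48 for Il11ra1. No other of the 8 was called as deposited, where 51.2% of all loci were called. Il22ra1 was near the filter, with 0.587, 0.718 and 0.407 FPKM in high fat Jnk1Jnk2 livers against 1.56, 1.43 and 1.46 FPKM in high fat controls.

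Of 12 JAK-STAT3 genes and inhibitors 11 were tested. In high fat Jnk1Jnk2 livers 7 were lower and 0 higher than in controls, with a median of -0.47 against -0.07 for all loci, of which 31.6% were lower. Jak1, the main kinase on gp130, had 10.3, 8.44 and 11.7 FPKM in high fat Jnk1Jnk2 livers against 19.0, 15.9 and 20.0 FPKM in high fat controls, with no overlap. Its change was -0.80 ± 0.12 (adjusted p = 2.83e-05). Ptpn11, the phosphatase SHP2, had -0.69 ± 0.11 and Jak2 -0.54 ± 0.10. With the length trend removed, 4 of the 11 were lower and the median was -0.09, against 0.01 for all loci, of which 16.8% were lower. Jak1 (-0.36) and Ptpn11 (-0.20) were then called and Jak2 (-0.09, adjusted p = 0.306) was not. In high fat Jnk1 and Jnk2 livers 0 of the 11 were called, against 0.227% of all loci for Jnk1 and 12.4% for Jnk2. Of 21 genes between the IL-1 receptor and NF-κB 19 were tested, and 11 were lower and 1 higher in high fat Jnk1Jnk2 livers, led by the ubiquitin ligase Traf6 at -0.61 ± 0.10, the kinase Map3k7 at -0.50 ± 0.09, its adaptor Tab2 at -0.77 ± 0.15 and the regulatory subunit Ikbkg at -0.67 ± 0.14. These changes are as deposited. With the length trend removed only 3 of these 19 were lower, near the 16.8% of all loci, and the median moved to -0.03. In high fat Jnk2 livers 1 of the 19 was called, Nfkb2, as higher, as were 7.45% of all loci. Of 4 other C/EBP genes 0 were called in high fat Jnk1Jnk2 livers, with or without the length trend. Of all loci 51.2% were called as deposited and 34% with the trend removed.

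Of the acute phase genes, the liver's targets of this pathway, most were called as lower in high fat Jnk1Jnk2 and in high fat Jnk2 livers than in high fat controls. All 23 listed were tested. In Jnk1Jnk2 livers 14 were lower and 1 higher, with a median of -0.80 against -0.07 for all loci, and with the length trend removed 16 were lower and 0 higher, with a median of -0.84. The share of all loci called as lower was 31.6%, and 16.8% with that trend removed. In Jnk2 livers 17 were lower and 0 higher, with a median of -0.82 against 0.02 for all loci, of which 4.96% were lower. In Jnk1 livers 0 of 23 were called, and the median was -0.31 against 0.00 for all loci. Only 0.227% of all loci were called there, so the 0 does not show that these genes were unchanged. Summed over the 23, the level was 19627 to 23616 FPKM in high fat Jnk1 livers, against 26188 to 27271 FPKM in high fat controls. It was 18220 to 21379 FPKM in Jnk1Jnk2 and 14474 to 16596 FPKM in Jnk2 livers on that diet. The interaction with diet called 11 of 23 as lower for Jnk1Jnk2, 15 of 23 as lower for Jnk2 and 0 for Jnk1, and with the length trend removed it called 13 for Jnk1Jnk2. Of all loci 19.1% were lower in the interaction with Jnk1Jnk2, 3.33% in that with Jnk2 and 0% in that with Jnk1. The list was chosen with earlier results of these samples known, so its direction is not independent evidence.

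C3, the central complement component, had 557, 355 and 489 FPKM in high fat Jnk1Jnk2 livers, against 1541, 1251 and 1227 FPKM in high fat controls, a change of -1.54 ± 0.19 (adjusted p = 5.08e-06). The fibrinogen chain Fgb had 1461, 1213 and 1193 FPKM in Jnk1Jnk2 livers and 1269, 1203 and 1761 FPKM in Jnk2 livers, against 2293, 2310 and 2519 FPKM in controls, with changes of -0.89 ± 0.15 (adjusted p = 8.18e-05) for Jnk1Jnk2 and -0.77 ± 0.15 (adjusted p = 0.0023) for Jnk2. In both genes every knockout library was below every control. Fga, another fibrinogen chain, had -1.01 ± 0.17 and the lipopolysaccharide-binding protein gene Lbp -0.90 ± 0.16 in Jnk1Jnk2 livers. All 4 were still called with the length trend removed, with C3 at -1.07, Fgb at -0.56, Fga at -0.97 and Lbp at -0.98. In Jnk2 livers the smallest adjusted p values were those of the pentraxin gene Apcs, at -1.76 ± 0.27 (adjusted p = 0.000323), and of Orm1, at -1.49 ± 0.26 (adjusted p = 0.000906), whose reads may be shared with the closely related Orm2. The 1 acute phase gene called as higher in Jnk1Jnk2 livers, named after its value was seen, was the iron hormone gene Hamp, with 2700, 3261 and 2300 FPKM in Jnk1Jnk2 livers against 1101, 1609 and 1502 FPKM in controls, and it was not called with the length trend removed. Whether the receptors, Stat3 or any other gene of the pathway set the acute phase levels was not tested.

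**Figure D4:**
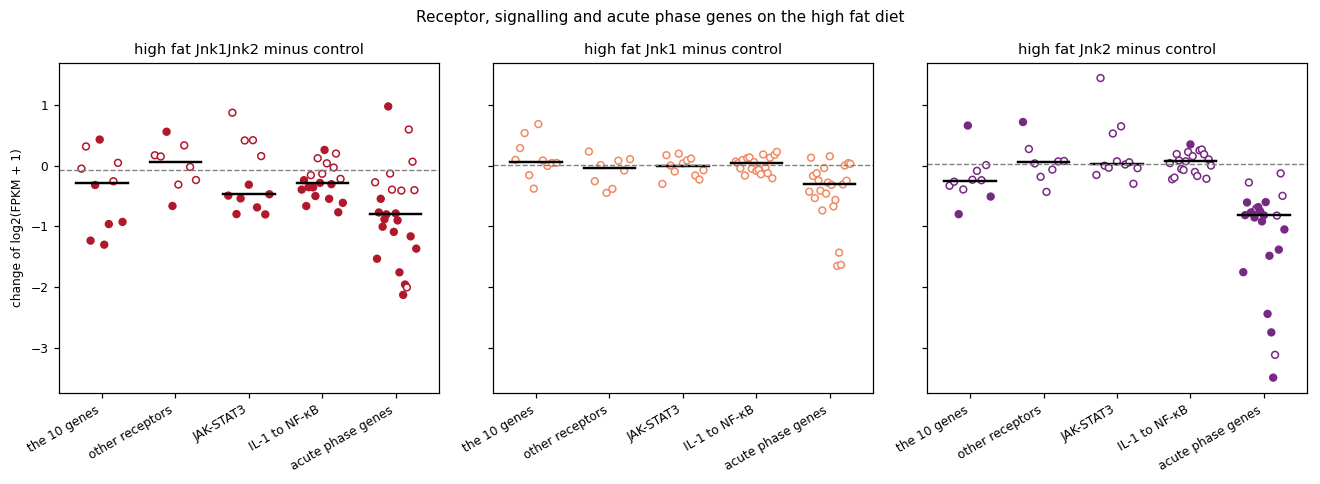
Change of log2(FPKM + 1) of single genes (points, filled where called at an adjusted p under 0.05) in 5 lists, for high fat Jnk1Jnk2, Jnk1 and Jnk2 livers against the same high fat controls. Black bars are list medians and dashed lines the median of all loci. The acute phase medians are -0.80, -0.31 and -0.82, whereas the JAK-STAT3 median is below -0.4 in the Jnk1Jnk2 panel and near 0 in the other panels. All values are as deposited. With the length trend removed, which is not plotted, the JAK-STAT3 median in Jnk1Jnk2 livers lay much closer to that of all loci.

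Some markers of other liver cells were also called. In high fat Jnk1Jnk2 livers against controls 19.6% of all loci were higher and 31.6% lower. With the length trend removed these shares were 17.2% higher and 16.8% lower. For high fat Jnk2 livers against controls they were 7.45% higher and 4.96% lower. Counts of 1 or 2 called in lists this short are not in themselves a result about a cell type. In whole liver, fewer cells of a type and less RNA per cell cannot be told apart. Of 12 macrophage and Kupffer cell markers 6 were higher and 0 lower in high fat Jnk1Jnk2 livers than in controls, and their summed level was 614 to 736 FPKM in Jnk1Jnk2 livers against 387 to 457 FPKM in controls. With the length trend removed 3 of the 12 were higher, near the share of all loci. Of 7 sinusoidal endothelial markers 3 were higher and 2 lower (94.1 to 116 FPKM summed, against 71.9 to 74.6 FPKM in controls). Of 6 stellate cell markers 1 was higher (102 to 179 FPKM, against 88.8 to 117 FPKM). Of 2 tested cholangiocyte markers 1 was higher (35.1 to 62.8 FPKM, against 18.2 to 25.4 FPKM, summed over all 5). The called cholangiocyte marker was Spp1, at 1.22 ± 0.20. The untested ones reached at most 1.52 FPKM in these Jnk1Jnk2 libraries, so the sum rests mostly on the 2 tested. Of 3 tested neutrophil markers 1 was higher, and the summed level overlapped at 50.3 to 60.9 FPKM in Jnk1Jnk2 livers and 28.9 to 92.6 FPKM in controls. Of 6 T cell markers 0 passed the filter (2.79 to 4.17 FPKM summed in Jnk1Jnk2 livers, against 2.08 to 2.66 FPKM in controls). Of 6 hepatocyte markers, which summed to 33334 to 38980 FPKM in Jnk1Jnk2 livers against 27935 to 34278 FPKM in controls, 2 were higher and 2 lower, among them Apob, an apolipoprotein with a very long transcript, at -1.74 ± 0.16. After removal of the length trend, 3 endothelial markers were higher and 0 lower, 4 stellate cell markers and 1 cholangiocyte marker were higher, 0 neutrophil markers were called, and of the hepatocyte markers 1 was higher and 2 were lower, with Apob at -0.95. In high fat Jnk2 livers 6 of 7 endothelial markers were higher (105 to 111 FPKM summed, against 71.9 to 74.6 FPKM in controls), 1 of 12 macrophage markers was higher, and 2 of 6 stellate cell markers were higher (118 to 154 FPKM summed, against 88.8 to 117 FPKM in controls), Col1a1 at 1.31 ± 0.29 and Col3a1 at 0.89 ± 0.25. Neutrophil markers summed to 17.5 to 25.6 FPKM in high fat Jnk2 livers, below the 28.9 to 92.6 FPKM of controls, and 0 of the 3 tested were called. Of the hepatocyte markers 1 was lower in high fat Jnk2 livers, and 0 cholangiocyte markers were called. No marker of these lists was at 0 in all libraries of a high fat Jnk1Jnk2, Jnk2 or control group. The part of these cells in the levels of Il1r1, Il1rn and the other genes was not tested.

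Over the 24 libraries the loci whose log2(FPKM + 1) was most like that of Socs3 were Junb, with a Pearson r of 0.726, Pim1 (0.682), Hes1 (0.62), 0610043K17Rik (0.616) and Lrrc61 (0.614). Those most like Stat3 were the fibrinogen gene Fga (0.902), Lpgat1 (0.885), Cpn2 (0.883), the zinc transporter gene Slc39a14 (0.877) and Fgb (0.87). The best match of Stat3 was closer than that of Socs3. These values are descriptions over libraries that share groups, depth and, in high fat Jnk1Jnk2 livers, the length trend.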

How the data were processed

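Liver RNA was measured by RNA-seq in 24 libraries, grouped by their labels. No label ties a replicate to its own mouse, and the p-values reflect the spread among these samples and may be technical. RNA came from RNeasy columns, per the labels' protocols, and per the submitters' processing notes, TopHat, Cufflinks and Cuffdiff were used on mm10. No versions are given in the sources used here. For each library the authors deposited FPKM for 31027 loci. At 11042 of 20347 matched loci the deposited start was 1 below that of RefSeq, so starts are written here counted from 1. FPKM are not counts, and no count test was run.

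All comparisons used the trend method of limma 3.58.1 in R 4.3.3 on values of log2(FPKM + 1), with a pseudocount of 1, which understates changes of low genes, in 1 fit of all 24 libraries with 16 residual degrees of freedom, on the 10562 loci with a mean of at least 1 FPKM. In each of 13 comparisons a locus was called where its p, adjusted by Benjamini-Hochberg, was under 0.05. The length trend was the loess (span 0.5) of a library's deviation from the mean on log2 transcript length (GENCODE vM21), known for 96.6% of tested loci. A gene's length was the median exonic length of its basic transcripts, 2778 bases for Il6st, and values after removal depend on it. Other alternatives were a pseudocount of 0.1, no filter, size factors, quantile normalization, array weights, a replicate block, leaving out each library, and fitting the compared groups alone. In each comparison those of the 10 genes called in the fit of all 24 libraries are named, and those not called only in part. Other lists are named by at most 4 called genes of smallest adjusted p. The genes and lists were chosen with earlier results of these data known. One gene of the lists is not reported here by name.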

Additional observations from a re-analysis of the deposited data

Results flagged for a closer look

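In 6 cases the effect of losing kinases differed between the high fat diet and chow by the interaction test of the limma fit. For loss of both kinases these were Il1r1 (-1.74, adjusted p = 0.00166), Il6ra (-1.49, adjusted p = 0.00259), Stat3 (-1.0, adjusted p = 0.00274) and Il6st (-0.98, adjusted p = 0.000662). For loss of JNK2 they were Il1r1 (-1.66, adjusted p = 0.0105) and Stat3 (-0.77, adjusted p = 0.0382). The first 4 rest on the high fat Jnk1Jnk2 libraries, in which long transcripts had lower FPKM, and all 4 were called with that trend removed. The call of Stat3 for JNK2 was lost in 7 of 12 fits that left out 1 library.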

How the results depend on the processing

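Of 2000 alternative values of the 10 genes, 1774 kept direction and side of the threshold, 131 changed sign with neither value called, 62 lost and 32 gained a call, and 1 turned round, the cause not tested: Il1rap in high fat Jnk1Jnk2 against control livers, at 0.01 with the length trend removed. The number of the 10 genes called in high fat Jnk1 against control livers was 2 with array weights, against 0. In high fat Jnk2 against control livers it was 1 with no filter, 0 when the groups compared were fitted alone and 0 to 3 with 1 library left out, against 3. For the diet effect it was 5 with array weights in Jnk2 livers, against 2, and 4 with array weights and 1 to 3 with 1 library left out in controls, against 2. With 1 library left out it was 1 to 4 in Jnk1 livers, against 3. For the interaction with JNK2 it was 1 with no filter, 1 with the groups compared alone and 1 to 2 with 1 library left out, against 2.

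With the replicate number as a block, 5 of the 10 genes were called in high fat Jnk1Jnk2 against control livers, against 6 without the block, 2 against 3 in high fat Jnk2 against control livers, and 3 against 2 for the diet effect in both Jnk2 and control livers; the other 9 comparisons kept their number. Same-numbered libraries did not deviate together: correlations ran from -0.26 to 0.207, and in 0 of 10 comparisons were all above 0.1, so the numbers were not taken as pairs. Counted over these comparisons, 16 of 60 libraries correlated best with their own number. Under the block 20 loci were called for chow Jnk2 (48 without) and 38 for high fat Jnk1 (24 without).

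Counts of called loci moved by over 1.5 times as follows. Array weights gave 447 for chow Jnk1Jnk2 against control (17 with equal weights), 466 for chow Jnk2 (48), 716 for high fat Jnk1 (24), 2824 for high fat Jnk2 (1311), 4570 for the diet effect in Jnk2 (2751), 3067 in controls (1717) and 2375 for the interaction with Jnk2 (1005). Fitting only the groups compared gave 7 for chow Jnk1Jnk2, 56 for chow Jnk1 (232), 2 for chow Jnk2, 6 for high fat Jnk1, 126 for high fat Jnk2, 945 for the diet effect in Jnk1 (1588), 1687 in Jnk2 and 655 for the interaction with Jnk2. Removing the length trend gave 3473 for high fat Jnk1Jnk2 (5410), 2174 for its interaction with diet (3689) and 359 for chow Jnk1. For chow Jnk2, a pseudocount of 0.1 gave 31, no filter 25 and size factors 25; for high fat Jnk1, size factors gave 55 and quantile normalization 63. Size factors split the calls for the diet effect in Jnk2 livers into 1295 higher and 1201 lower, against 2076 and 675 as deposited, where the median of all loci was -0.01 with size factors and 0.10 as deposited. They gave 847 and 912 for the diet effect in Jnk1 livers, against 974 and 614, 917 and 1008 in controls, against 1063 and 654, and 556 and 511 for the interaction with Jnk2, against 653 and 352. With 1 library left out, the called loci numbered 9 to 13 for chow Jnk1Jnk2, 96 to 199 for chow Jnk1, 6 to 27 for chow Jnk2, 10 to 36 for high fat Jnk1, 855 (without high fat control replicate 2) to 1408 for high fat Jnk2, 986 to 1550 for the diet effect in Jnk1, 1727 to 2969 in Jnk2, 1050 to 1619 in controls and 509 to 1337 for the interaction with Jnk2. Absolute depth is unknown, which limits what can be said of Socs3, Cebpd and Il1rn, the genes of lowest level.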

Other observations

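In Jnk2 livers the high fat diet raised 4 and lowered 1 of 19 genes between the IL-1 receptor and NF-κB, the raised ones being the NF-κB subunit genes Nfkb2 (change of log2(FPKM + 1) of 0.76 ± 0.10), Relb (0.69 ± 0.13), Nfkb1 (0.41 ± 0.10) and Rela (0.37 ± 0.10). Of all loci 19.7% were higher and 6.39% lower in this comparison, so these counts are at the background. Of 4 other C/EBP genes, 3 were higher on the diet in Jnk2 livers, Cebpa (0.58 ± 0.16), Cebpe (1.00 ± 0.28) and Ddit3 (0.61 ± 0.22). Some of these calls were not confined to Jnk2 livers. The diet also raised Cebpe in Jnk1 (0.91 ± 0.28) and Jnk1Jnk2 livers (1.16 ± 0.28), and Nfkb2 (0.41 ± 0.10) and Relb (0.43 ± 0.13) in Jnk1 livers.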
